A study of Rattus norvegicus with 12 samples.

Results

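The genes described here are 10 chemokine and chemokine receptor genes of joint tissue, namely the ligand genes Ccl2, Ccl7, Ccl20, Cxcl1, Cxcl2, Cxcl12 and Cx3cl1 and the receptor genes Ccr2, Cxcr4 and Cx3cr1. They were chosen by name, with earlier results of these data known. Every probe set of the array whose only annotated symbol was one of these names was taken, which gave 14 of the array's 31099 probe sets. Total RNA was taken from knee articular cartilage of rats, labelled with biotin and hybridized to 1-colour Affymetrix arrays. There were 4 groups of 3 arrays, with cartilage at 8 weeks after surgery that induces osteoarthritis (OA), at 8 weeks after sham surgery, at 2 weeks after OA surgery and at 2 weeks after sham surgery. The labels cite the laboratory's published surgical model, in which the anterior cruciate ligament is cut and part of the medial meniscus removed. The strain and age of the rats, and whether an array held RNA of 1 animal or of several, are not given in the sources used here. The p-values below therefore measure the spread between samples, which may be in part technical.

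Chemokines are small secreted proteins that bind G protein-coupled receptors on leukocytes and other cells and guide their movement, often while held on sulfated sugar chains of the matrix. CCL2 and CCL7 both act through CCR2, the receptor that brings monocytes out of the blood, and joint cells including chondrocytes can secrete CCL2 in injury and inflammation. CXCL12 holds and attracts CXCR4-bearing cells, among them haematopoietic progenitors and lymphocytes, and is taken up by the scavenger receptor ACKR3. CX3CL1 is anchored in the membrane and shed by ADAM proteases, CXCL1 and CXCL2 attract neutrophils, and CCL20 attracts CCR6-bearing lymphocytes.

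In the RefSeq annotation of the rat (GRCr8), Ccl2 and Ccl7 are neighbouring protein-coding genes on chromosome 10. Promoter windows, from 250 bases before to 50 bases after the annotated gene start, were held for 9 of the 10 genes, and Ccl2 was the gene without one. The windows of Ccl7, Cxcr4 and Cxcl12 are shown because these are the members, besides Ccl2, whose OA and sham values at 8 weeks stood furthest apart. All are given 5′ to 3′ along the gene, with the capitals marking matches on either strand to a TATA box (TATAAA), an AP-1 element (TGANTCA), an NF-kB element (GGG, any 3 bases, TTCC) or a GC box (CCGCCC).
Ccl7, chr10:67513845-67514144, plus strand: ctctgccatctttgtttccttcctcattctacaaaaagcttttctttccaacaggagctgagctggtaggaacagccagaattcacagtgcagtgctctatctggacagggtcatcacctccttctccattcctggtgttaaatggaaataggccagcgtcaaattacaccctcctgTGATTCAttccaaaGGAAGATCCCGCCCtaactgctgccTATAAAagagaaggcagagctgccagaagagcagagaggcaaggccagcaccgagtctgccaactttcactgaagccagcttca
Cxcr4, chr13:42634239-42634538, minus strand: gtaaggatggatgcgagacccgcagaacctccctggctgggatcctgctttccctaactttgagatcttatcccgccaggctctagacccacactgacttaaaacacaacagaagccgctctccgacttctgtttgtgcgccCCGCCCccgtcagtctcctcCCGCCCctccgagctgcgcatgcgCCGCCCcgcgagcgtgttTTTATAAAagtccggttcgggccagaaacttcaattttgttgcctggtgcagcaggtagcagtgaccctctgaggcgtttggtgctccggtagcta
Cxcl12, chr4:152060531-152060830, plus strand: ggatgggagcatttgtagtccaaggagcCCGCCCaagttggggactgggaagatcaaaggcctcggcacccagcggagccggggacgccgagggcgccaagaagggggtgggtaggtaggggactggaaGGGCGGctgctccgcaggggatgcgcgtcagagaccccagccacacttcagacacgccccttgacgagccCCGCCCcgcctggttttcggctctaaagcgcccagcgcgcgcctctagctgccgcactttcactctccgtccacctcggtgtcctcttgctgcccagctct

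The Ccl7 window held all 4 motifs, with the AP-1 match at -73 to -67 from the gene start, an NF-kB match on the opposite strand at -59 to -50 that overlaps a GC box at -51 to -46, and the TATA box at -34 to -29. The Cxcr4 window held 3 GC boxes and overlapping TATA matches on both strands, and the Cxcl12 window held 3 GC boxes. Neither of these 2 windows held a match to the AP-1 or the NF-kB letters. Of 33469 rat promoter windows of this length, 14.2% held the TATA box, 7.3% the AP-1 element, 5.4% the NF-kB element and 33.1% the GC box. NF-kB matches were also found in the windows of Ccl20, Cxcl1 (3 matches) and Cxcl2 (2 matches), whose probe sets read at the bottom of the scale in every group. A match describes letters and is not a measured binding site.

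Values are the authors' log2 values from GCRMA, a method that corrects the background, normalizes between arrays and summarizes the probes of a probe set. Probe sets above log2 4 in at least 3 of the 12 arrays were tested, 15934 in all, with limma and Benjamini-Hochberg adjustment over all of them, and a difference was called at an adjusted p under 0.05. Of the 14 member probe sets, 7 passed this filter and stood for 5 genes (Ccl2, Ccl7, Cxcl12, Cxcr4 and Cx3cl1). The cartilage label was checked with 6 detected chondrocyte markers, whose mean level was 15.1 to 15.4 in all 12 arrays. Markers of monocytes and macrophages, osteoclasts, osteoblasts and skeletal muscle were detected too. The 8-week arrays numbered 1 stood apart from the others of their group, the OA array with the highest muscle level (14.7, against 9.78 and 11.5 in the other 2 OA arrays) and the sham array with the lowest monocyte and macrophage level (7.52, against 9.71 and 10.02 in the other 2 sham arrays) and the highest muscle level of its group (10.6, against 5.56 and 7.27). Where leaving out 1 or both of these arrays changes a call of a member, such a value is given.

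Ccl2, which encodes the main monocyte attractant of the family, had its highest values in OA cartilage at 8 weeks. Its single probe set (1367973_at) read 11.98, 12.46 and 11.99 in OA cartilage at 8 weeks, against 4.18, 8.61 and 10.51 in sham cartilage at 8 weeks. At 2 weeks it read 8.39, 7.78 and 7.92 in OA cartilage, against 7.86, 8.43 and 5.75 in sham cartilage. The 3 OA arrays at 8 weeks lay above all 9 other arrays and close together, while the sham arrays at 8 weeks were spread over the widest range of any group.

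The group means of Ccl2, in log2 units with the SD of 3 arrays, were 12.14 ± 0.27 in OA and 7.76 ± 3.25 in sham cartilage at 8 weeks, and 8.03 ± 0.32 in OA and 7.35 ± 1.41 in sham cartilage at 2 weeks. Below OA at 8 weeks, the 3 other groups did not differ beyond their spread. The OA minus sham difference at 8 weeks was 4.38 ± 1.31 (SE), a 20.8-fold higher value in OA, with a 95% interval from 1.46 to 7.29. It did not pass limma's test (adjusted p = 0.0994), and it did not pass under any of the 21 alternatives (adjusted p from 0.0682 to 0.256). Without sham replicate 1 of 8 weeks, the array at 4.18, the difference was 2.58, and without sham replicate 3 it was 5.75. At 2 weeks the difference was 0.68 ± 1.31 (adjusted p = 0.99996), and its sign turned without sham replicate 3 of that time (-0.12). The 8-week difference exceeded the 2-week difference by 3.69 ± 1.85, which did not pass (adjusted p = 0.501).

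Monocyte and macrophage markers, the genes of the cells that CCL2 attracts, were low in the OA arrays of 8 weeks, where Ccl2 was high. Their mean level over the 11 detected genes of 13 was 6.28 to 6.49 in OA cartilage at 8 weeks, against 7.52 to 10.02 in sham cartilage at 8 weeks. Of their 12 tested probe sets, 5 were called lower in OA at 8 weeks and 0 higher (1.95% and 1.51% of all probe sets), with a median difference of -2.41. The bright marker Cd14 was level, with 12.50 in OA and 12.60 in sham cartilage at 8 weeks. Within each sham group the marker level had the same order over the 3 arrays as Ccl2, with 7.52, 9.71 and 10.02 at 8 weeks and 9.98, 10.07 and 8.41 at 2 weeks for arrays 1, 2 and 3. The order was also the same in OA cartilage at 8 weeks (6.28, 6.49 and 6.46), but not at 2 weeks (9.71, 9.31 and 8.81). An order of 3 arrays can easily match by chance. The sham array of 8 weeks with the lowest Ccl2 value also had the highest muscle level of its group. Muscle markers ranged from 9.78 to 14.7 in OA and from 5.56 to 10.6 in sham cartilage at 8 weeks, with 0 of 14 probe sets called by limma. Of the 14, 12 were higher in OA, against 8150 of all 15934 probe sets. The 14 include those of Myh1, bright in all 12 arrays. Mb and Mybpc2 passed the filter through 8-week arrays alone, most of them of OA cartilage. No result is therefore drawn from the muscle difference between OA and sham. The part of either cell type in the Ccl2 difference was not tested. In bulk cartilage, more cells that express a gene and more RNA of it per cell cannot be told apart.

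Ccl7, the neighbour of Ccl2 and also a CCR2 ligand, was higher in all 3 OA arrays than in all 3 sham arrays at 8 weeks. Its probe set (1379935_at) read 6.75, 6.09 and 6.23 in OA cartilage at 8 weeks, against 5.37, 5.52 and 5.35 in sham cartilage at 8 weeks. At 2 weeks it read 5.70, 5.27 and 5.15 in OA cartilage, against 5.29, 5.17 and 4.34 in sham cartilage. The 3 OA arrays at 8 weeks were the highest of the 12, as for Ccl2, and the 2-week groups overlapped.

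Group means of Ccl7 were 6.36 ± 0.35 in OA and 5.42 ± 0.09 in sham cartilage at 8 weeks, and 5.37 ± 0.29 in OA and 4.93 ± 0.51 in sham cartilage at 2 weeks (SD, 3 arrays each). Sham at 8 weeks and OA at 2 weeks, neighbours in this order, did not differ beyond their spread. The 8-week difference was 0.94 ± 0.26 (SE), 1.92-fold, and did not pass limma's test (adjusted p = 0.0796). With same-numbered OA and sham arrays of a time paired as blocks, it passed (adjusted p = 0.0461), and without both 8-week arrays numbered 1 it was 0.72 (adjusted p = 0.223). At 2 weeks the difference was 0.44 ± 0.26 (adjusted p = 0.99996), and the change between times was 0.50 ± 0.37 (adjusted p = 0.655).

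**Figure D1:**
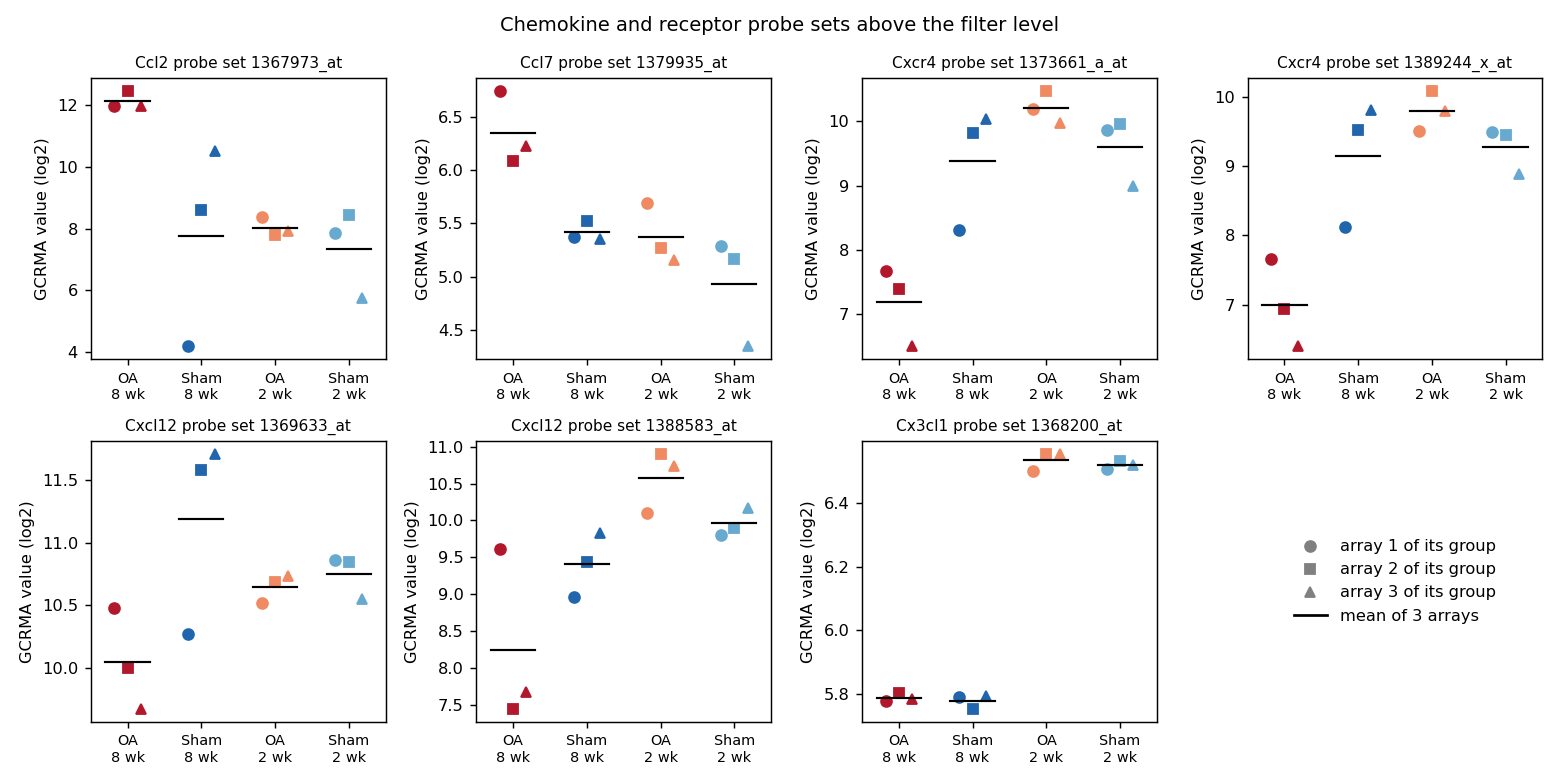
GCRMA log2 values (y axis, log2) of the 7 member probe sets past the filter in OA and sham cartilage at 8 and at 2 weeks, with a symbol per array and a bar for the mean of 3 arrays. The OA arrays at 8 weeks are the highest of the 12 for Ccl2 and Ccl7 and the lowest for both Cxcr4 probe sets, and Cx3cl1 separates by time alone.

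Cxcr4, the receptor of CXCL12 and a gene of many leukocytes and progenitors, was the member gene called between OA and sham. Its brightest probe set (1373661_a_at) read 7.67, 7.40 and 6.50 in OA cartilage at 8 weeks, against 8.31, 9.82 and 10.04 in sham cartilage at 8 weeks. At 2 weeks it read 10.19, 10.47 and 9.98 in OA cartilage, against 9.86, 9.96 and 8.99 in sham cartilage. The OA arrays lay below all sham arrays at 8 weeks and above all sham arrays at 2 weeks.

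A second Cxcr4 probe set (1389244_x_at), annotated to the same sequence accession and so no independent measurement, read 7.66, 6.95 and 6.40 in OA and 8.13, 9.52 and 9.80 in sham cartilage at 8 weeks. At 2 weeks it read 9.50, 10.08 and 9.79 in OA and 9.49, 9.44 and 8.89 in sham cartilage. Another, dim probe set (1370097_a_at) exceeded log2 4 in 1 array and was left out of the test. It read 2.50, 2.46 and 2.37 in OA and 2.54, 3.28 and 3.05 in sham cartilage at 8 weeks, and 3.97, 4.47 and 3.75 in OA and 3.70, 3.79 and 3.29 in sham cartilage at 2 weeks. These values are too low to compare OA with sham.

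At 8 weeks Cxcr4 fell in OA by 2.20 ± 0.47 on the log2 scale (4.61-fold lower, limma adjusted p = 0.0359) in the brightest probe set and by 2.15 ± 0.44 (4.43-fold lower, adjusted p = 0.0318) in the second. With same-numbered arrays of a time paired as blocks, neither passed (adjusted p = 0.0578 and 0.0678), nor with the spread taken from the 6 arrays of 8 weeks alone (adjusted p = 0.163 for both). The call of the brightest probe set held without OA replicate 1 of 8 weeks, sham replicate 1 of 8 weeks or sham replicate 3 of 2 weeks and ended without any other single array (adjusted p from 0.0512 to 0.139). The call of the second ended without OA replicate 2 or 3 or sham replicate 2 or 3 of 8 weeks (adjusted p from 0.0669 to 0.122). Without both 8-week arrays numbered 1, the differences were -2.98 and -2.99 (adjusted p = 0.00734 and 0.00186). Chosen after seeing the data, this fit left out the highest OA and the lowest sham value of 8 weeks in both probe sets. The differences therefore had to widen, and no support is drawn from them.

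At 2 weeks Cxcr4 differed by 0.61 ± 0.47 and 0.52 ± 0.44 in these probe sets (adjusted p = 0.99996 for both), with OA higher. The change of the OA minus sham difference from 2 to 8 weeks was -2.81 ± 0.66 and -2.67 ± 0.62 and did not pass (adjusted p = 0.162 and 0.157). Of the 12 fits with 1 array left out, it passed only without sham replicate 1 of 8 weeks (-3.35 and -3.18, adjusted p = 0.0300 and 0.0290). This was the lowest sham array of that time in both. Leaving it out had to make the change more negative, so no support is drawn from it.

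Cxcr4 had its low values in the OA arrays of 8 weeks, in which monocyte and macrophage and osteoclast markers were low too. The monocyte and macrophage level was 6.28 to 6.49 in OA and 7.52 to 10.02 in sham cartilage at 8 weeks, and 8.81 to 9.71 in OA and 8.41 to 10.07 in sham cartilage at 2 weeks. Of the defining markers, Itgam was under log2 4 in all 12 arrays and Cd163 in 10 of them, and Cd68 lay under 4 in the 3 OA arrays of 8 weeks alone. Cd14, bright in all 12 arrays, averaged 12.50 in OA and 12.60 in sham cartilage at 8 weeks (-0.10 ± 0.37, limma adjusted p = 0.912). The 5 detected osteoclast markers of 8 ranged from 9.48 to 10.8 in OA and from 12.5 to 12.9 in sham cartilage at 8 weeks, and from 12.4 to 12.5 in OA and from 12.5 to 13.1 in sham cartilage at 2 weeks. At 8 weeks 6 of 6 of their probe sets were called lower in OA (1.95% of all probe sets), with a median difference of -2.99. The neutrophil and marrow myeloid markers, of which 4 of 8 passed the filter, did not follow this order at 8 weeks. Csf3r passed it at 3.97 to 4.03 in the arrays of 2 weeks and read 2.48 to 2.55 at 8 weeks. Camp exceeded log2 4 at 8 weeks only in sham array 3 (4.40). Only S100a8 and S100a9 could therefore show a difference between OA and sham at 8 weeks. The mean level of the 4 ranged from 4.22 to 7.15 in OA and from 5.34 to 7.50 in sham cartilage at 8 weeks. Limma called 0 of the 4 probe sets (0 at an unadjusted p under 0.05, against 3423 of all 15934). At 2 weeks the level ranged from 7.68 to 9.63 in OA and from 5.59 to 7.90 in sham cartilage. The median difference of the 4 probe sets was 2.41, and 0 were called (1 at an unadjusted p under 0.05, against 269 of all 15934). The 2 detected T and B cell markers of 8 had a mean level of 2.94 to 3.27 in OA and 3.08 to 4.48 in sham cartilage at 8 weeks, and 1 of them, Cd3e, averaged 4.52 in OA and 4.48 in sham cartilage. The other, Ms4a1, passed the filter through 3 arrays, all of sham cartilage, so no result is drawn from the mean of the 2. The 4 detected endothelial markers of 8 ranged from 4.27 to 5.60 in OA and from 5.60 to 7.53 in sham cartilage at 8 weeks. Of their 4 probe sets limma called 0 (3 at an unadjusted p under 0.05, against 3423 of all 15934). The part of these cells in the Cxcr4 difference was not tested.

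**Figure D2:**
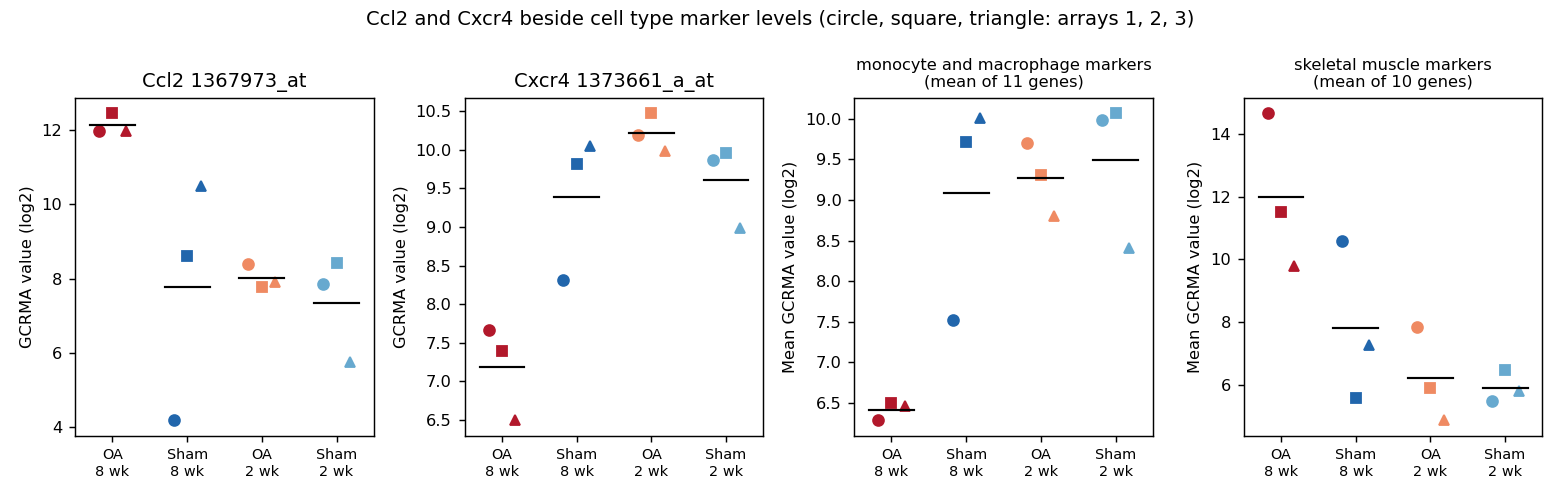
Log2 values (y axes) of Ccl2 and Cxcr4 and mean log2 levels of 11 monocyte and macrophage markers and 10 skeletal muscle markers in each array, by group, with a bar for the group mean. In OA cartilage at 8 weeks Ccl2 and the muscle markers were high and Cxcr4 and the monocyte and macrophage markers low, and sham array 1 of 8 weeks stands apart from the other 2 sham arrays in all 4 panels. The muscle level includes Mb and Mybpc2, which passed the filter through 8-week arrays alone.

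Cxcl12, which encodes the CXCR4 ligand, was lower in OA at 8 weeks in both of its bright probe sets without passing the test. The probe set 1369633_at read 10.48, 9.99 and 9.67 in OA and 10.26, 11.58 and 11.71 in sham cartilage at 8 weeks, and 10.52, 10.69 and 10.73 in OA and 10.86, 10.84 and 10.55 in sham cartilage at 2 weeks. At 8 weeks the groups overlapped only through the 2 arrays numbered 1.

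The probe set 1388583_at read 9.61, 7.44 and 7.68 in OA and 8.96, 9.44 and 9.83 in sham cartilage at 8 weeks, and 10.10, 10.90 and 10.73 in OA and 9.81, 9.90 and 10.17 in sham cartilage at 2 weeks. OA array 1 of 8 weeks lay within the sham range, and the other 2 OA arrays lay well below it. Another probe set, 1387655_at, did not exceed 2.72 in any array.

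The 8-week differences of Cxcl12 were -1.14 ± 0.34 (adjusted p = 0.102) in 1369633_at and -1.17 ± 0.50 (adjusted p = 0.213) in 1388583_at. Without sham replicate 1 of 8 weeks 1369633_at was called at -1.60 (adjusted p = 0.00607), and without OA replicate 1 of 8 weeks 1388583_at was called at -1.85 (adjusted p = 0.0161). Without both of these arrays the differences were -1.81 (adjusted p = 0.00126) and -2.08 (adjusted p = 0.00784). These arrays held the lowest sham and the highest OA value of 8 weeks in both probe sets, so leaving them out had to widen the differences. At 2 weeks the 2 probe sets pointed in different directions, with -0.11 ± 0.34 and 0.62 ± 0.50 (adjusted p = 0.99996 for both). The change between times was -1.03 ± 0.49 (adjusted p = 0.471) and -1.78 ± 0.71 (adjusted p = 0.409). In 1388583_at it passed without OA replicate 1 of 8 weeks (-2.47, adjusted p = 0.0462), and without both 8-week arrays numbered 1 it passed in both probe sets (-1.71 and -2.69, adjusted p = 0.0123 and 0.0185).

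Osteoblast and osteocyte markers, genes of a cell type that secretes CXCL12 in marrow, had a mean level of 10.8 to 11.4 in OA and 12.3 to 12.6 in sham cartilage at 8 weeks. Of their 8 tested probe sets, 4 were called lower in OA (1.95% of all probe sets). The brightest marker, Ibsp, averaged 15.43 in OA and 15.57 in sham cartilage (limma adjusted p = 0.446). Synovial fibroblast and tendon markers had a mean level of 9.91 to 10.16 in OA and 10.28 to 10.87 in sham cartilage at 8 weeks. Of their 5 tested probe sets, 1 was called lower in OA. The part of these cells in the Cxcl12 difference was not tested.

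Cx3cl1, the membrane-anchored ligand of CX3CR1, did not separate OA from sham at either time. Its probe set (1368200_at) read 5.78, 5.80 and 5.78 in OA and 5.79, 5.75 and 5.79 in sham cartilage at 8 weeks, and 6.50, 6.56 and 6.56 in OA and 6.51, 6.53 and 6.52 in sham cartilage at 2 weeks. The OA minus sham difference was 0.01 ± 0.06 at 8 weeks, with a 95% interval from -0.13 to 0.15, and 0.02 ± 0.06 at 2 weeks. The values moved with time and hardly within a time. Over the 6 arrays of 8 weeks they spanned 0.0506 log2 units, a span as narrow in only 26 of 3639 tested probe sets with a mean between log2 5 and 8, whose median span was 0.812. Whether 1368200_at measured Cx3cl1 in this tissue was not tested.

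The other members read low in every array. Ccr2, the receptor of CCL2 and CCL7 on monocytes, ranged from 2.42 to 2.48 in OA and from 2.40 to 2.43 in sham cartilage at 8 weeks, and from 2.42 to 2.51 in OA and from 2.43 to 2.48 in sham cartilage at 2 weeks. Cx3cr1, the fractalkine receptor of monocytes, ranged from 2.24 to 2.30 in OA and from 2.22 to 2.25 in sham cartilage at 8 weeks, and from 2.03 to 2.08 in OA and from 2.04 to 2.08 in sham cartilage at 2 weeks. In neither receptor gene did OA and sham differ by more than a small part of 1 log2 unit.

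Of the low ligand genes, Ccl20 ranged from 1.98 to 2.05 in OA and from 1.96 to 1.99 in sham cartilage at 8 weeks, and from 1.98 to 2.03 in OA and from 1.98 to 2.02 in sham cartilage at 2 weeks. Cxcl1 ranged from 2.12 to 2.17 in OA and from 2.10 to 2.13 in sham cartilage at 8 weeks, and from 2.15 to 2.21 in OA and from 2.15 to 2.20 in sham cartilage at 2 weeks. Cxcl2 ranged from 1.77 to 1.81 in OA and from 1.75 to 1.78 in sham cartilage at 8 weeks, and from 1.76 to 1.80 in OA and from 1.76 to 1.80 in sham cartilage at 2 weeks. Values this low do not show that a gene was silent, since a probe set can fail to report its transcript. With no filter, the 8-week differences of Ccr2, Cx3cr1, Ccl20, Cxcl1 and Cxcl2 were between 0.0165 and 0.0249 (limma adjusted p = 0.823 for each of these 5).

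**Figure D3:**
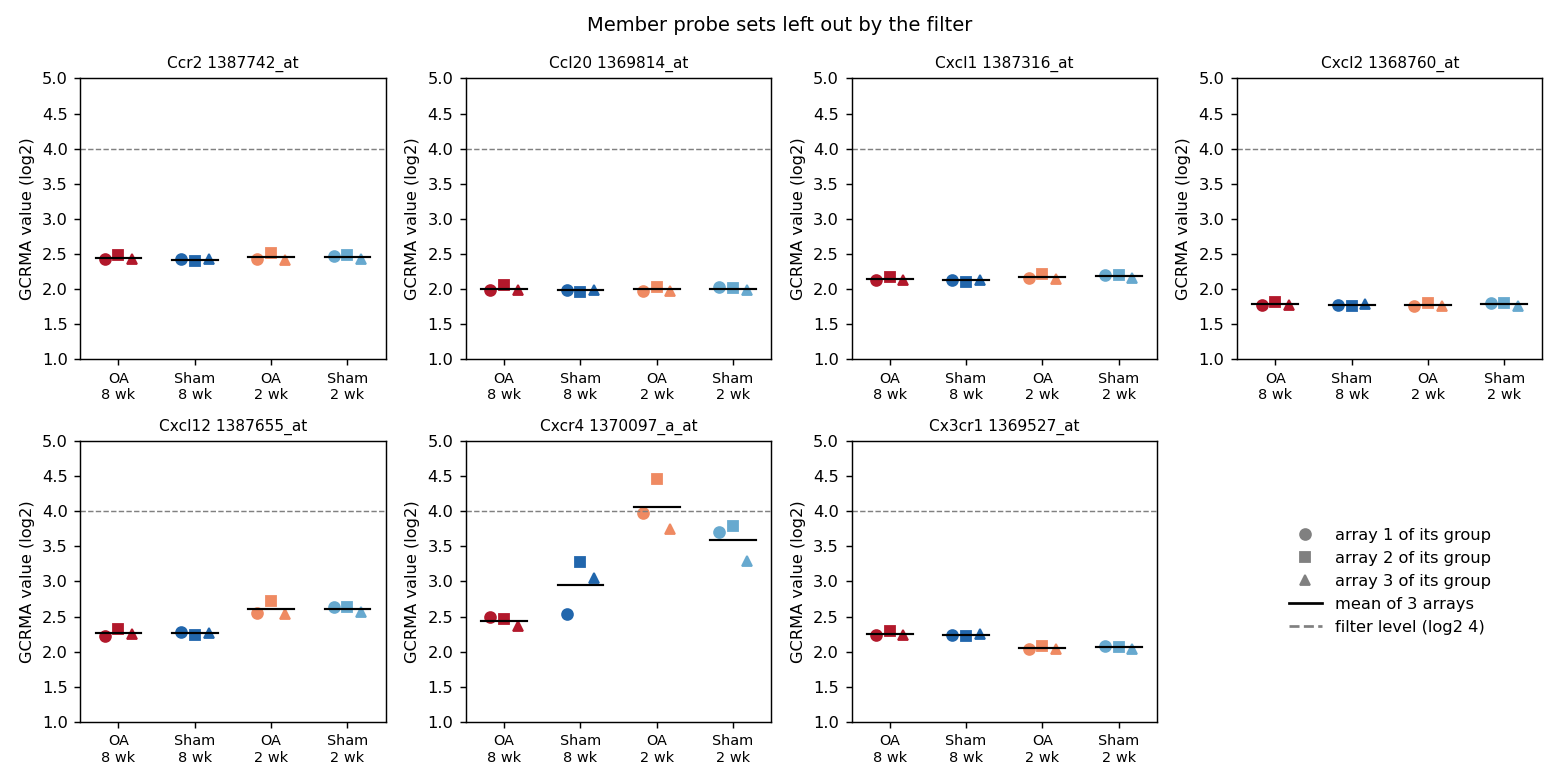
GCRMA log2 values (y axis, log2) of the 7 member probe sets left out by the filter, by group and array, with bars for group means and a dashed line at the filter level of log2 4. Ccr2, Ccl20, Cxcl1 and Cxcl2 are flat over all 12 arrays, the dimmest Cxcl12 probe set, Cx3cr1 and the dim Cxcr4 probe set shift between times, and the dim Cxcr4 probe set exceeds 4 in 1 array.

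The members were chosen with earlier results of these data known, so the counts below are no test of them as a group. Counted together, 2 of the 7 tested member probe sets, both of Cxcr4, were called at 8 weeks, and both were lower in OA. Over all 15934 tested probe sets 3.46% were called, 1.95% lower and 1.51% higher. The median difference was -1.14 over the member probe sets and 0.01 over all probe sets. Groups at 8 weeks did not overlap in 2 member probe sets with OA above sham (Ccl2 and Ccl7, background 12.3%) and in 2 with OA below sham (both of Cxcr4, background 12.8%). At 2 weeks limma called 0 of the 7, and 0% of all probe sets, with 0 of the 7 and 269 of 15934 at an unadjusted p under 0.05. The 2 Cxcr4 probe sets were the members with OA above sham without overlap at 2 weeks (background 1.91%), and 0 members had OA below sham without overlap (background 3.46%). At 8 weeks 6 of the 7 and 3423 of 15934 had an unadjusted p under 0.05. The change between times was called in 0 of the 7 (3 at an unadjusted p under 0.05, against 1760 of all 15934) and in 0.138% of all probe sets, 0.0628% with a positive and 0.0753% with a negative change.

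**Figure D4:**
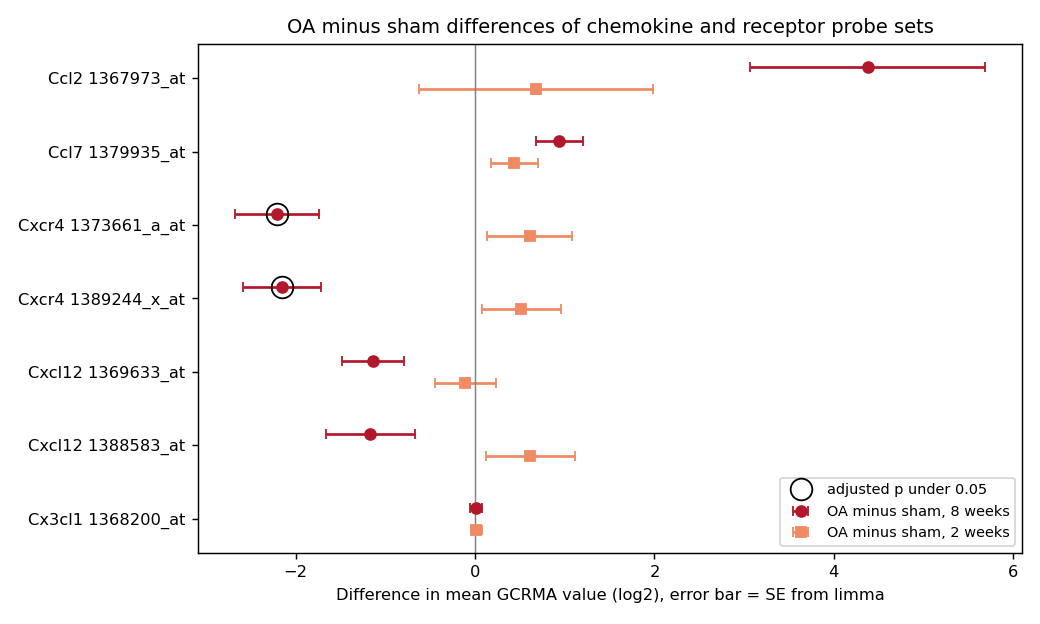
OA minus sham differences (x axis, log2) of the 7 tested member probe sets at 8 weeks (circles) and 2 weeks (squares), with SE from limma as error bars and black rings around differences with an adjusted p under 0.05. Only the 2 Cxcr4 differences at 8 weeks are ringed, and the larger Ccl2 difference of 4.38 has a wide error of 1.31.

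Among other genes of the chemokine system, most ligands and receptors read low. Of 30 further chemokine genes, 24 had a probe set and 7 passed the filter. Of 21 further receptor genes, 15 had a probe set and 6 passed, and of 8 genes for release or capture of chemokines 6 passed. At 8 weeks limma called 0 of the 7 probe sets of further chemokines (3 at an unadjusted p under 0.05, against 3423 of all 15934), with a median difference of -0.57, against 0.01 over all probe sets. Pf4, a platelet and macrophage chemokine, read 6.78, 6.70 and 6.54 in OA and 6.68, 9.68 and 9.93 in sham cartilage, a difference of -2.09 ± 0.81 (adjusted p = 0.175). Ccl6, a myeloid chemokine of rodents, read 2.82, 2.59 and 2.49 in OA and 2.85, 5.18 and 5.82 in sham cartilage (-1.98 ± 0.86, adjusted p = 0.217). In both genes sham array 1 read close to the OA arrays and the other 2 sham arrays well above them. Without both 8-week arrays numbered 1, Pf4 was called at -3.19 (adjusted p = 0.0339), and Ccl6 was at -2.96 (adjusted p = 0.100). These arrays held the highest OA and the lowest sham value of both genes, so leaving them out had to widen the differences. Cxcl14, a chemokine of epithelia and connective tissue, averaged 10.99 in OA and 11.56 in sham cartilage (-0.57 ± 0.20, adjusted p = 0.145).

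Of the 7 probe sets of further receptors, limma called 0 at 8 weeks (0 at an unadjusted p under 0.05, against 3423 of all 15934). Ackr3, the scavenger of CXCL12, averaged 14.21 in OA and 13.95 in sham cartilage (0.27 ± 0.16, adjusted p = 0.359). Ackr4, which encodes a scavenger of homeostatic chemokines, averaged 8.88 in OA and 8.38 in sham cartilage (0.49 ± 0.35, adjusted p = 0.461). Among 9 probe sets for release and capture, 1 was called, against 3.46% of all probe sets. An unadjusted p under 0.05 was found in 3 of the 9, in both directions, against 3423 of all 15934. The called gene, Adam17, encodes the protease that sheds CX3CL1 and other membrane proteins. At 8 weeks it read 11.78, 12.06 and 12.25 in OA and 11.004, 10.96 and 11.21 in sham cartilage. The value was higher in OA by 0.97 ± 0.14 (limma adjusted p = 0.00940), and the 2 groups were apart by more than the spread within either. Between times Adam17 was level within OA cartilage (0.10 ± 0.14, adjusted p = 0.637). Within sham cartilage it was lower at 8 weeks (-0.95 ± 0.14, adjusted p = 0.000727). At 2 weeks none of these 3 lists had a call by limma. An unadjusted p under 0.05 was found in 1 of their 23 probe sets, against 269 of all 15934. It was 1 of the 2 probe sets of Cmklr1, the chemerin receptor gene (-0.39 ± 0.16, adjusted p = 0.99996).

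**Figure D5:**
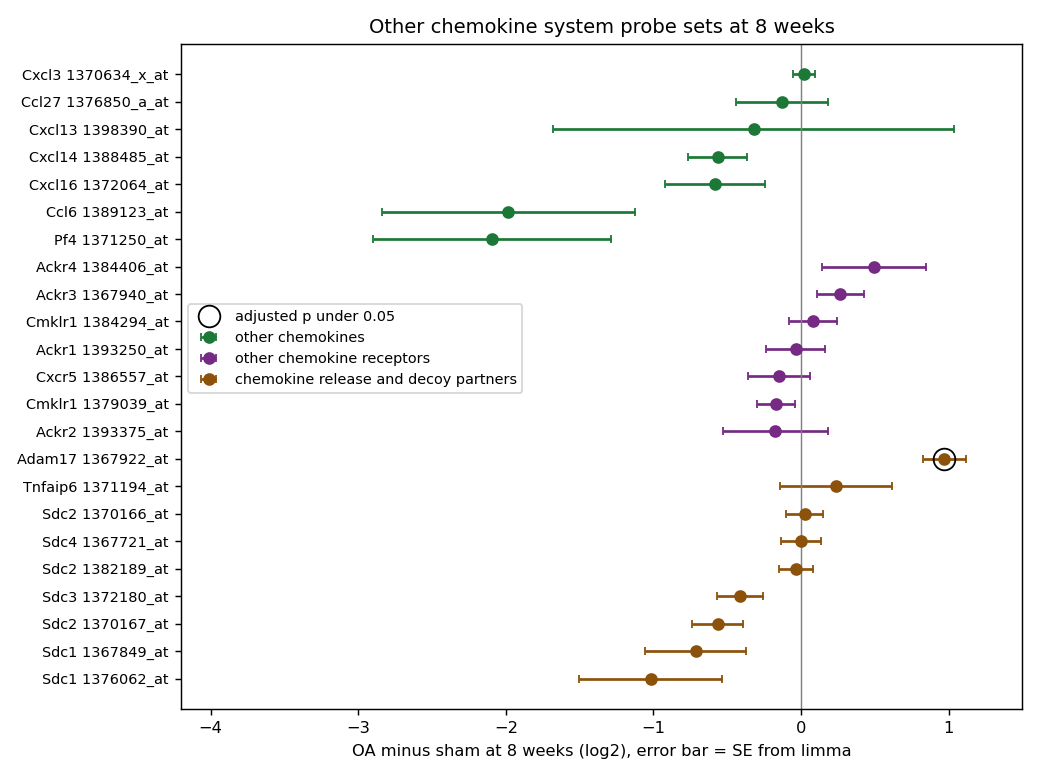
OA minus sham differences at 8 weeks (x axis, log2) of 23 probe sets of further chemokines, receptors and partner genes, with SE from limma as error bars. Adam17 alone is ringed as past the adjusted p of 0.05, and Pf4 and Ccl6 lie furthest below 0 with wide errors.

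The comparison of times describes how the members differ between 8 and 2 weeks within a kind of surgery. Within OA cartilage, 6 of the 7 member probe sets were called, 2 higher and 4 lower at 8 weeks. The background was wide, with 34.1% of all probe sets called, 21.7% higher and 12.4% lower at 8 weeks. The 3 arrays of 8 weeks lay wholly above those of 2 weeks in 2 member probe sets (background 29.2%) and wholly below in 5 (background 17.5%). Ccl2 rose by 4.11 ± 1.31 (adjusted p = 0.0341), a call that ended without any of the 6 OA arrays (adjusted p from 0.0656 to 0.0877). Ccl7 rose by 0.98 ± 0.26 (adjusted p = 0.0149), a call that ended without OA replicate 3 of 2 weeks or OA replicate 1 of 8 weeks (0.0528 and 0.0537), without both 8-week arrays numbered 1 (0.0676) and with added quantile normalization (0.0518). Cxcr4 fell by 3.03 ± 0.47 and by 2.79 ± 0.44 (adjusted p = 0.000671 and 0.000725), and Cxcl12 fell by 2.33 ± 0.50 in 1388583_at (adjusted p = 0.00485). The other Cxcl12 probe set differed by -0.60 ± 0.34 (adjusted p = 0.210), and passed without sham replicate 1 of 8 weeks (adjusted p = 0.0364) and without both 8-week arrays numbered 1 (-0.81, adjusted p = 0.00335).

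Within sham cartilage, 1 of the 7 was called, Cx3cl1, which fell by 0.74 ± 0.06 (adjusted p = 1.10e-05), as it fell by 0.75 ± 0.06 within OA cartilage. The background in sham cartilage was 18.7%, 12.5% higher and 6.24% lower at 8 weeks. Ccl2 differed between times by 0.42 ± 1.31 in sham cartilage, Ccl7 by 0.48 ± 0.26 and Cxcr4 by -0.22 ± 0.47 and -0.12 ± 0.44, and none of these passed. Cxcl12 differed by 0.43 ± 0.34 in 1369633_at (adjusted p = 0.517) and by -0.55 ± 0.50 in 1388583_at (adjusted p = 0.591). Without sham replicate 1 of 8 weeks 1369633_at was called at 0.89 (adjusted p = 0.0177). That array held its lowest sham value of 8 weeks, so leaving it out had to raise the difference. Neither Cxcr4 difference kept its sign without sham replicate 1 of 8 weeks (0.32 and 0.39). In the lists of related genes, the calls between times within OA cartilage were Cmklr1 (0.67, 1 of 2 probe sets) and Ackr3 (0.53), which rose, and the syndecan gene Sdc3 (-1.03), which fell. Within sham cartilage they were Adam17 (-0.95) and Sdc3 (-0.73), which fell. Cxcl3, Ccl27 and Ackr1 were called between times as well, but their probe sets passed the filter through arrays of the time at which they read higher, with Cxcl3 and Ackr1 above log2 4 mostly at 8 weeks and Ccl27 at 2 weeks alone, so that no result is drawn from them. Adam17 averaged 12.03 in OA cartilage at 8 weeks and 11.06 in sham cartilage at 8 weeks, against 11.93 in OA and 12.00 in sham cartilage at 2 weeks. Its change of the OA minus sham difference between times was 1.04 ± 0.20 and did not pass (adjusted p = 0.0998). In that comparison limma called 0 of the 23 listed probe sets, with 2 at an unadjusted p under 0.05, against 1760 of all 15934. The 2 comparisons of times share no arrays with each other, but each shares arrays with the comparisons of OA with sham.

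All arrays of a time share that time, so age and any difference in handling between times cannot be told apart. Among 14232 probe sets under log2 4 in all 12 arrays, whose median span within a time was 0.0942 to 0.0951, the 6 arrays of 8 weeks lay wholly on one side of the 6 arrays of 2 weeks in 27.0%. Among the members, the dimmest Cxcl12 probe set and Cx3cr1 showed such a shift at the bottom of the scale, the dim Cxcr4 probe set lay lower in all 6 arrays of 8 weeks (2.37 to 3.28) than in all 6 of 2 weeks (3.29 to 4.47), and Cx3cl1 showed one of 0.74 to 0.75 at a higher value.

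The genes with the values most like those of Ccl2, Ccl7 and Cxcr4 were sought among 11682 tested probe sets with 1 gene symbol, by the root mean square difference between the 12 log2 values after each probe set's mean was removed. For Ccl2 the nearest were Olr1, which encodes a receptor for oxidized low-density lipoprotein (1.36 log2 units), Cystm1 (1.38) and Lurap1l (1.39). Olr1 averaged 7.89 in OA and 5.08 in sham cartilage at 8 weeks, and 4.58 in OA and 4.72 in sham cartilage at 2 weeks. None of the 3 was close, since a difference over 1 log2 unit is larger than the SD of Ccl2 within 2 of the 4 groups. For Ccl7 the nearest were the guanine deaminase gene Gda (0.239), Rtn1 (0.261) and the phospholipase gene Plcb1 (0.263). For Cxcr4 they were Slfn4 (0.372), the leukocyte integrin gene Itgal (0.412) and Lmo2, which encodes a cofactor of blood cell transcription (0.422). Itgal averaged 6.01 in OA and 8.10 in sham cartilage at 8 weeks, and 8.47 in OA and 8.11 in sham cartilage at 2 weeks, the same order of groups as Cxcr4. Slfn4 and Lmo2 did not share it, with 8.784 and 8.502 in OA and 8.796 and 8.508 in sham cartilage at 2 weeks. All 3 genes were picked for their likeness to Cxcr4, so a like order is no separate evidence.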

How the data were processed

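Total RNA of rat knee cartilage was measured on 12 arrays in 4 groups of 3, as the labels group them. The deposited values are log2 values per probe set, made by the authors with GCRMA per the submitters' processing notes; its version and whether all arrays were processed together are not given in the sources used here. They were used without further normalization, and GCRMA compresses differences near the bottom of the scale. Gene symbols came from the array's annotation, which gave 1 symbol to 20832 probe sets, several to 436 and none to 9831. A symbol counted as a member only where it stood alone.

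After leaving out 57 control probe sets and 15108 low ones, 15934 probe sets were fitted with limma 3.58.1 (R 4.3.3), with 1 mean per group over 12 arrays; each probe set's variance had 8 degrees of freedom of its own and 1.94 from the empirical Bayes prior. Plots were drawn with Python 3.11.15 and matplotlib 3.10.9. Arrays of a group correlated with each other at a mean of 0.973 to 0.988. The number of arrays limits the precision. Same-numbered OA and sham arrays deviated together in each of the 3 pairs at both times (correlations of deviations 0.24, 0.24 and 0.12 at 8 weeks and 0.33, 0.36 and 0.53 at 2 weeks), so a fit with these pairs as blocks was added. Between times the same numbers correlated at -0.50 to 0.24, below 0.1 for most pairs, and were not taken as pairs.

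Every member probe set is named. From each of 3 lists of related genes, called probe sets are named, and where a list had none, up to 3 with the smallest unadjusted p. The members and lists were chosen with earlier results of these data known. The alternatives dropped the filter or raised it to log2 6, quantile normalized the arrays again, weighted them, let the variance follow the mean, used the replicate number as a block, fitted only the groups compared, or left out each array. Pairs within a time, and leaving out both 8-week arrays numbered 1, were chosen after seeing the data.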

Additional observations from a re-analysis of the deposited data

Results flagged for a closer look

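The mean OA minus sham difference of Cxcr4 had opposite signs at the 2 times, but the 2-week difference was not called (0.61 ± 0.47 and 0.52 ± 0.44, limma adjusted p = 0.99996 for both probe sets). All 3 OA arrays lay below all 3 sham arrays at 8 weeks (background 12.8%) and above all 3 at 2 weeks (background 1.91%), in both bright probe sets. The 2 probe sets share a sequence accession and are no independent measurements. At 2 weeks the lowest OA array read 9.504 and the highest sham array 9.488 in 1389244_x_at. The change of the difference from 2 to 8 weeks was -2.81 in 1373661_a_at and -2.67 in 1389244_x_at. It was tested as the interaction in limma and did not pass (adjusted p = 0.162 and 0.157).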

How the results depend on the processing

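Of 714 member differences under alternatives, 647 kept their direction and their side of the threshold, 29 lost a call, 23 gained one and 15, none of them called, changed sign. The counts below are of 15934 tested probe sets, or of the 7 members, where fewer were tested under the stricter filter and more without one. At 8 weeks, OA against sham had 552 calls and 2 among members as reported. It had 362 and 0 without a filter, 1567 and 5 with array weights, 27 and 0 with only the arrays compared, and 110 to 979 and 0 to 3 with 1 array left out. Without both 8-week arrays numbered 1, members had 4 calls. At 2 weeks the 0 calls became 0 to 1 with 1 array left out. Between times, sham cartilage had 2979 calls and 1 among members as reported, 6938 and 3 without a filter, 1523 with the filter at log2 6, and 1 to 2 among members with 1 array left out. Without both arrays numbered 1, members had 2. OA cartilage had 5430 calls as reported and 9461 without a filter. The change of the OA minus sham difference had 22 calls and 0 among members as reported. It had 8 without a filter, 39 with quantile normalization, 130 and 2 with array weights, 130 and 4 without both arrays numbered 1, and 7 to 80 and 0 to 2 with 1 array left out. Apart from the number of features and samples tested, the cause was not tested.

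Same-numbered arrays of a time paired as a replicate block gave 1037 calls at 8 weeks, with 1 among members (Ccl7, adjusted p = 0.0461, while both Cxcr4 calls ended), and 67 calls for the change between times. The replicate block over all times left both Cxcr4 calls (adjusted p = 0.0459 and 0.0486) and added Ccl7 (adjusted p = 0.0457).

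Signs turned only for differences that were not called. Cx3cl1 at 8 weeks was -0.0057 with quantile normalization and -0.0036 to 0.0166 with 1 array left out, and its change between times was 0.0047 without both arrays numbered 1 and -0.0246 to 0.0029 with 1 array left out. Between times in sham cartilage, Cxcr4 was 0.12 in 1389244_x_at with array weights, and 0.32 and 0.39 in the 2 probe sets without both arrays numbered 1. With 1 array left out it was -0.54 to 0.32 and -0.45 to 0.39, and Ccl2 was -0.95 to 2.21. Ccl2 at 2 weeks was -0.12 to 1.22 with 1 array left out. The 3 arrays per group limit the precision of all these values, and members near the bottom of the scale had too little signal over background to compare.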
